A study of Macaca mulatta with 17 samples.

Results

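The lymphocyte and natural killer (NK) cell genes described here are 42 genes of the rhesus macaque array, out of 17172 gene names that could be read from its probe descriptions. A list of 43 symbols was fixed by name, and a gene was included when a probe description gave its symbol, or an older name of it, in parentheses or as the human gene that the macaque sequence resembles. Of several probes for 1 gene, the one with the highest mean processed signal over the arrays was taken. This mattered for 4 genes (PTPRC, CD53, CD8B and GNLY), while the other 38 had 1 probe. The description of the CD6 probe names the gene outside parentheses, so CD6 fell outside the rule and is given apart.

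The uteri were from female rhesus macaque fetuses, and each fetus gave 1 array. At gestational day 100 (GD100) there were 5 control fetuses and 5 fetuses of dams given 400 µg/kg of deuterated bisphenol A (BPA) daily in a fruit treat from GD50 to GD100. At term (GD165 to GD168, written GD165) there were 4 controls and 3 fetuses whose dams were given the same dose from GD100. Stillbirths occurred in both GD165 groups, and the study left the uteri of stillborn fetuses out of the arrays. Control dams received the ethanol vehicle. GD100 fetuses were delivered by cesarean section and GD165 fetuses vaginally, so age and mode of delivery cannot be told apart, and the exposure window also differed between the ages. RNA came from one side of each uterus, cut lengthwise from fundus to cervix, and therefore from all of its cell types. In such bulk tissue, fewer cells of a type and less RNA per cell cannot be told apart.

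T cells recognize antigen through a receptor whose signal is carried into the cell by the CD3 chains and CD247, with CD4 or CD8 as coreceptor. Cytotoxic T cells and NK cells kill by releasing perforin, which opens the target membrane, and granzymes, which enter through it. B cells use membrane immunoglobulin with CD79A and CD79B. NK cells are the characteristic lymphocytes of the primate uterus, and they gather in the endometrium around pregnancy.

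Levels are log2 processed signals scaled to the 75th percentile of each array, so that a difference of 1 is a doubling. Levels of different probes cannot be compared with each other. Of the 42 genes, 34 were well above background on all 17 arrays and 5 on only some of them (CD3G on 14, CD28 on 16, MS4A1 on 15, PAX5 on 7 and TNFRSF17 on 4). No array measured CD3D, ICOS or KLRD1 well above background. No array (0 of 17) was saturated for any member. Across arrays, 83.8 to 89.0% of spots were well above background, and any pair of the 17 arrays correlated at 0.974 to 0.995 (Pearson's r, 136 pairs). The markers used for uterine smooth muscle (ACTA2, MYH11, DES, CNN1 and TAGLN) and for uterine stroma and Müllerian identity (HOXA10, HOXA11, ESR1, EMX2, PDGFRA and DCN) were well above background on every array.

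Each probe on this array has 60 bases, and what a gene's value measures is set by them. The first 30 bases, 5′ to 3′ as the scanner files give the probe, are shown for the probes of the 4 members with a single probe that rose with age in both control and BPA-exposed uteri, and for KLRB1, which passed in controls, since the results turn on them.
CD8A: gcctgcccattggagagaaaaaacttaagt
CD27: tgcaggagggcggggctctggttgtaaaac
GZMB: aactaagcccccgctgtgatgaaccacctt
PRF1: cctgtcctgacctgtctcaccgtgtacaca
KLRB1: cttaaaaattacaggtgatgctaaagaaaa
CD8B had 4 probes, which did not give the same result, and they are shown next to its values. Over their full length the 42 probes had a median GC content of 45.0%, against 41.7% over all 20217 probes.

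Between GD100 and GD165 in controls, 7 of the 42 genes rose and 0 fell at an adjusted p under 0.01. They were PRF1, GZMB, KLRB1, CD8A, CD8B, CD27 and CD247, with log2 fold changes from 0.99 to 1.78. Over all probes 11.5% passed in this comparison, and 6.32% passed as rises and 5.2% as falls, against 16.7% and 0% of the members. At an unadjusted p under 0.05 the shares were close, 33.3% of the members and 33.1% of all probes, and at an adjusted p under 0.05 they were 23.8% (10 genes) and 21.2%. The median log2 fold change over the 42 genes was 0.37 and that over all probes 0.00, and 35 of the 42 estimates were above 0, against 50.5% of all probes. Of the members, 10 had no overlap between the 4 GD165 and 5 GD100 controls, all 10 of them higher at GD165, where 9.51% of all probes did so in that direction and 9.9% in the other. Besides the 7, these were CD48, GZMK and NKG7, which did not pass the test.

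Between GD100 and GD165 in BPA-exposed fetuses, 6 of the 42 genes rose and 0 fell. They were GZMB, CD8B, PRF1, CD8A, CD27 and CD48, with log2 fold changes from 0.99 to 2.09. Over all probes 9.68% passed here and 4.82% passed as rises and 4.86% as falls, against 14.3% and 0% of the members. At an unadjusted p under 0.05 the shares were 45.2% of the members and 34.5% of all probes, and at an adjusted p under 0.05 they were 31.0% (13 genes) and 21%. The 2 comparisons used different fetuses, although they share 1 estimate of the spread, and 5 genes passed in both (CD8A, CD8B, CD27, GZMB and PRF1). How many of all probes passed in both was not counted, so this overlap is not read as particular to these genes. The median over the 42 genes was 0.06, against -0.05 over all probes, and 22 of the 42 estimates were above 0, against 44.7% of all probes. In this comparison 8 members did not overlap and were higher at GD165 (CD247, CD8A, CD8B, CD27, GZMA, GZMB, PRF1 and KLRB1), where 11.7% of all probes did so. Another 4 did not overlap and were lower (CD79A, BLK, TNFRSF17 and FOXP3), where 15.4% of all probes did so, and none of the 4 passed the test.

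**Figure D1:**
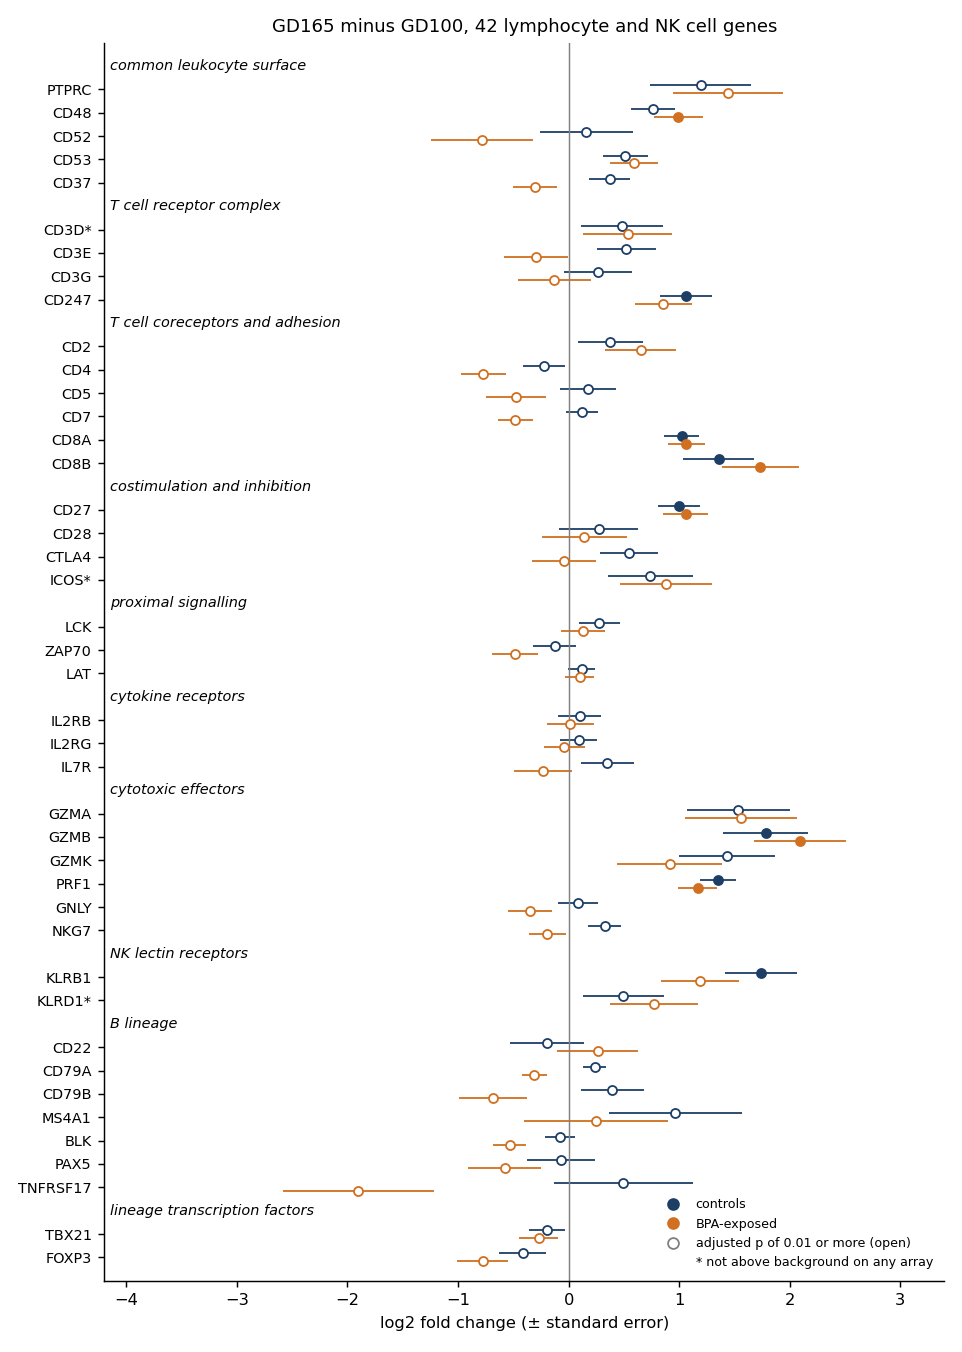
Log2 fold change from GD100 to GD165 (x axis, ± standard error) of the 42 genes by role, in controls (dark blue) and BPA-exposed fetuses (orange), with filled points where the adjusted p was under 0.01. The filled points are 7 in controls and 6 in BPA-exposed fetuses, and all of them lie to the right of 0.

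Of the cytotoxic effectors, 2 of 6 passed in each group. PRF1 encodes perforin. Its levels in GD100 controls were 7.36, 7.05, 7.53, 6.997 and 7.27 for replicates 1 to 5, and in GD165 controls 8.80, 8.50, 8.53 and 8.53 for replicates 1, 3, 5 and 6. In GD100 BPA-exposed fetuses they were 6.82, 7.33, 7.25, 7.23 and 6.99 for replicates 1 to 5, and at GD165 8.75, 8.21 and 7.93 for replicates 3, 4 and 5. Every GD165 uterus was above every GD100 uterus, and the replicates are given in this order throughout. The log2 fold change was 1.35 ± 0.16 (SE, limma, adjusted p = 4.89e-05) in controls, a 2.55-fold rise, and 1.17 ± 0.17 (adjusted p = 0.000421) in BPA-exposed fetuses.

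GZMB encodes granzyme B, a protease of cytotoxic granules that starts apoptosis in the target cell. Control levels were 10.10, 9.39, 10.01, 9.001 and 8.90 at GD100 and 11.46, 11.54, 10.73 and 11.31 at GD165. In BPA-exposed fetuses they were 8.73, 9.80, 9.24, 9.30 and 9.18 at GD100 and 12.67, 10.69 and 10.66 at GD165. The groups did not overlap at either exposure, and replicate 3 of the GD165 BPA group was the highest of the 17 arrays. The log2 fold change was 1.78 ± 0.38 in controls (3.44-fold, adjusted p = 0.00405) and 2.09 ± 0.42 in BPA-exposed fetuses (4.26-fold, adjusted p = 0.00307). Without that replicate 3 the value in BPA-exposed fetuses was 1.43 and no longer passed (adjusted p = 0.0117).

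GZMA and GZMK, further granzymes, gave 1.54 ± 0.46 (adjusted p = 0.0278) and 1.43 ± 0.43 (adjusted p = 0.0280) in controls, as large as PRF1 but with more spread. In BPA-exposed fetuses they gave 1.56 ± 0.51 and 0.91 ± 0.47, which did not pass either. NKG7, a granule membrane protein of NK cells and cytotoxic T cells, had levels of 14.56, 14.74, 14.84, 14.86 and 14.51 in GD100 controls and 14.89, 14.91, 15.19 and 15.12 in GD165 controls. BPA-exposed levels were 15.08, 14.81, 14.82, 14.82 and 14.67 at GD100 and 14.17, 14.71 and 15.07 at GD165. The GD165 controls were all above the GD100 controls by a small margin, the BPA-exposed groups overlapped, and neither age difference passed (0.33 ± 0.15, adjusted p = 0.143, and -0.19 ± 0.16, adjusted p = 0.440). GNLY, which encodes the pore-forming peptide granulysin, gave 0.09 ± 0.18 and -0.35 ± 0.20. By its other probe, also well above background on all 17 arrays, it gave 0.44 ± 0.23 (adjusted p = 0.206) and -0.46 ± 0.25 (adjusted p = 0.212) by limma.

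KLRB1 encodes the lectin-like receptor CD161 of NK cells and of some T cells. Its levels were 5.36, 4.60, 4.98, 4.82 and 4.89 in GD100 controls and 6.49, 6.63, 6.06 and 7.50 in GD165 controls. In BPA-exposed fetuses they were 4.53, 4.51, 5.56, 4.92 and 5.41 at GD100 and 6.96, 5.57 and 5.99 at GD165. The ages did not overlap in either case, although replicate 3 at GD100 and replicate 4 at GD165 of the BPA groups lay at 5.56 and 5.57 and nearly met. The rise passed in controls (1.74 ± 0.32, 3.34-fold, adjusted p = 0.00138) and not in BPA-exposed fetuses (1.19 ± 0.35, adjusted p = 0.0257). With normexp background correction the control value was 0.87 and still passed (adjusted p = 0.00218). KLRD1, the CD94 chain of the NKG2 receptors, stayed near background throughout, so no fold is given.

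CD8A encodes the alpha chain of the CD8 coreceptor, which is found on cytotoxic T cells and on part of the NK cells. Its levels were 6.96, 7.17, 6.65, 6.91 and 6.81 in GD100 controls and 8.22, 8.04, 7.45 and 7.98 in GD165 controls. After BPA they were 7.05, 6.70, 6.77, 6.79 and 7.11 at GD100 and 8.22, 7.77 and 7.86 at GD165. The lowest GD165 uterus lay above the highest GD100 uterus. The log2 fold change was 1.02 ± 0.16 (adjusted p = 0.000333) in controls and 1.07 ± 0.17 (adjusted p = 0.000683) in BPA-exposed fetuses, about a doubling in each.

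**Figure D2:**
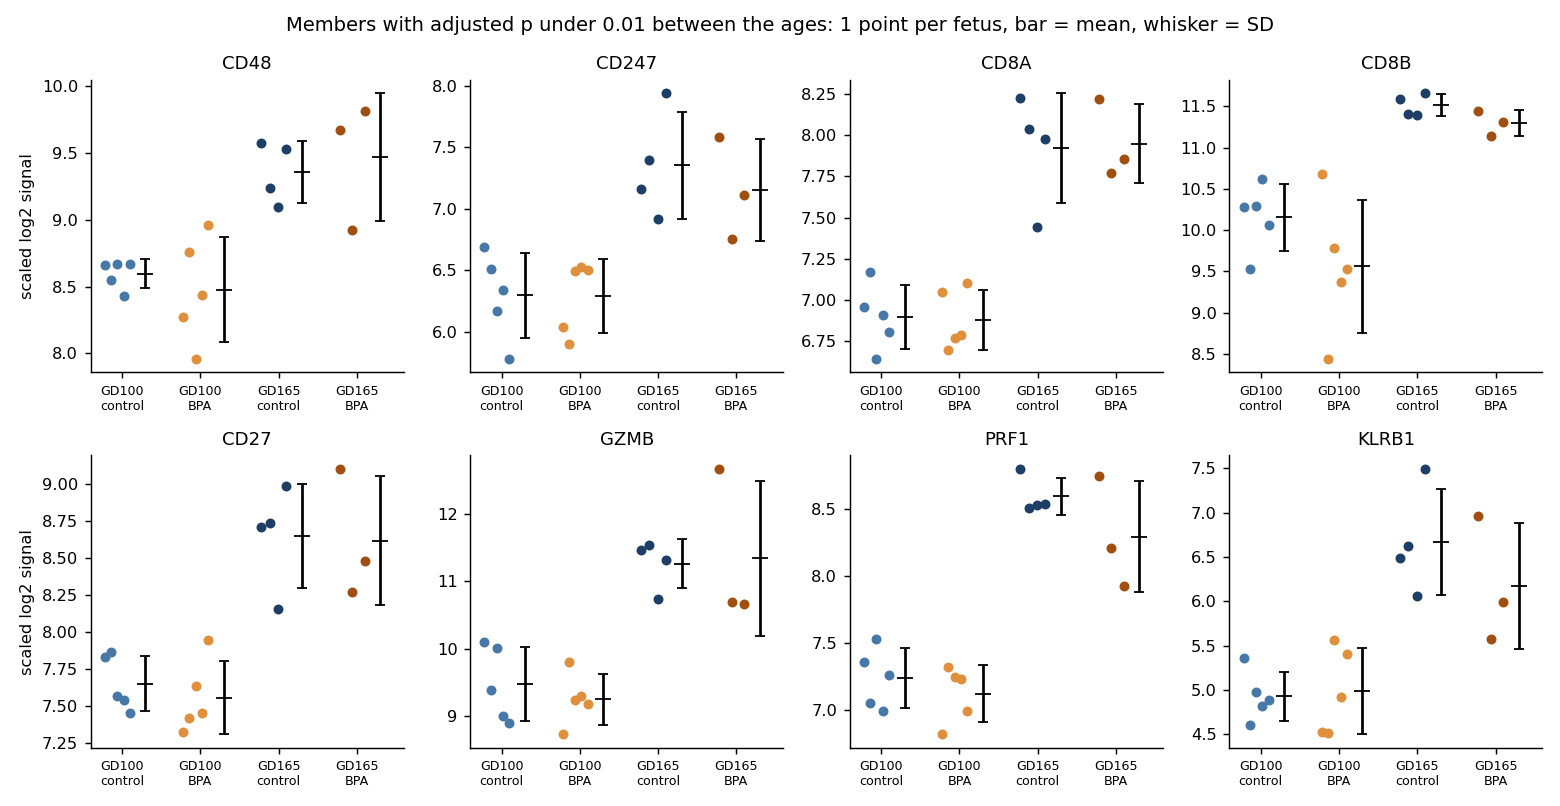
Scaled log2 signal (y axis, a separate scale for each gene) in the 4 groups for the 8 genes that passed between the ages in controls, in BPA-exposed fetuses or in both, with 1 point per fetus and the mean and SD beside the points. For CD8A the GD100 uteri lie between 6.65 and 7.17 and the GD165 uteri between 7.45 and 8.22.

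CD8B encodes the beta chain, which pairs with CD8A on T cells. By its brightest probe the levels were 10.29, 9.53, 10.29, 10.62 and 10.07 in GD100 controls and 11.59, 11.41, 11.40 and 11.66 in GD165 controls. BPA-exposed levels were 10.68, 8.44, 9.78, 9.38 and 9.53 at GD100 and 11.45, 11.14 and 11.31 at GD165. All GD165 uteri were above all GD100 uteri, and the spread was largest in the GD100 BPA group. The rise was 1.36 ± 0.32 (adjusted p = 0.00703) in controls and 1.74 ± 0.35 (adjusted p = 0.00315) in BPA-exposed fetuses. The call in controls was lost in 12 of 31 other settings, which include the mean over the probes of the gene (1.35, adjusted p = 0.0123) and leaving out any 1 control but replicate 4 at GD100, or replicate 5 of the GD100 BPA group. The call in BPA-exposed fetuses was lost without any 1 of the 3 GD165 fetuses.

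None of the other 3 CD8B probes passed at both exposures. The first 30 bases of the brightest and of the dimmest probe, and the 30-base run shared by probes 2 and 3, are shown 5′ to 3′ to tell them apart, and capitals mark the shared run.
CD8B probe 1: atggcttaattcttctttcattttctgctc
CD8B probes 2 and 3: TAAATGTATCCATCTTGAATAAATTTGCCC
CD8B probe 4: tggtttcacaacttgctgttgttttcaggt
The shared run holds bases 31 to 60 of probe 2 and bases 1 to 30 of probe 3. Probe 1 had a GC content of 26.7% and probe 2 of 41.7%. Probe 2 was well above background on 16 arrays and gave 1.52 ± 0.52 in controls (adjusted p = 0.0505) and 1.87 ± 0.57 in BPA-exposed fetuses (adjusted p = 0.0305). Probe 3, well above background on 10 arrays, gave 1.53 ± 0.68 (adjusted p = 0.128) and 2.80 ± 0.74 (adjusted p = 0.0157). Probe 4 was well above background on 0 arrays, so no fold is given, although its adjusted p in controls was 0.00749. In GD165 controls probe 2 read 7.64, 6.54, 4.57 and 5.96 and probe 3 6.63, 5.50, 3.22 and 3.55, and replicate 5 was the lowest by both, whereas by probe 1 the 4 fetuses differed little.

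**Figure D3:**
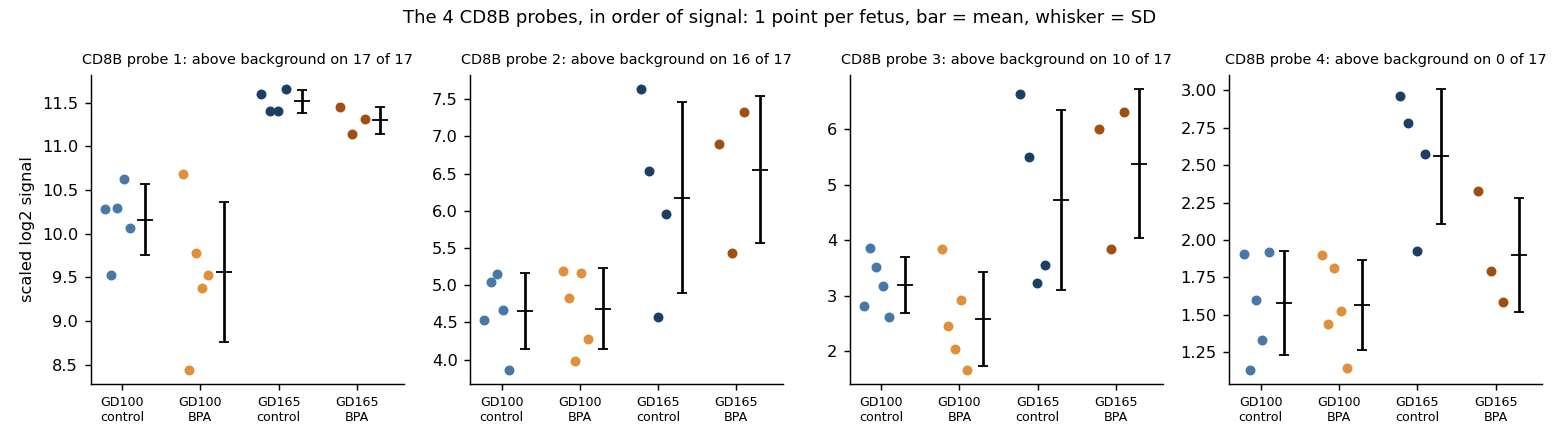
Scaled log2 signal (y axis) of the 4 CD8B probes in the 4 groups, in order of signal, with 1 point per fetus and the mean and SD beside the points. By probes 1 to 3, of which 2 and 3 share 30 bases, the mean at GD165 lies above the mean at GD100. The groups separate fully in both controls and BPA-exposed fetuses only for probe 1. Probe 4 was well above background on 0 arrays.

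CD4, the coreceptor of helper T cells, which human macrophages also carry, did not follow CD8. Its levels were 13.06, 12.77, 13.43, 12.88 and 12.69 in GD100 controls and 12.90, 12.88, 12.86 and 12.34 in GD165 controls. In BPA-exposed fetuses they were 12.89, 13.51, 13.51, 13.71 and 13.31 at GD100 and 12.62, 12.32 and 12.90 at GD165. Both pairs of groups overlapped. The age difference was -0.22 ± 0.19 (adjusted p = 0.463) in controls and -0.77 ± 0.21 (adjusted p = 0.0166) in BPA-exposed fetuses. The remaining coreceptor and adhesion genes CD2, CD5 and CD7 ranged from 0.12 to 0.38 in controls and from -0.48 to 0.65 in BPA-exposed fetuses, and none passed. CD6, the adhesion receptor given apart, gave 0.45 (adjusted p = 0.121) in controls and 0.01 in BPA-exposed fetuses.

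Of the T cell receptor complex, 1 of 4 genes passed in controls and 0 of 4 in BPA-exposed fetuses. CD247, the zeta chain that also serves NK receptors, had levels of 6.69, 6.51, 6.17, 6.34 and 5.78 in GD100 controls and 7.16, 7.39, 6.92 and 7.94 in GD165 controls. BPA-exposed levels were 6.04, 5.90, 6.49, 6.53 and 6.51 at GD100 and 7.58, 6.76 and 7.11 at GD165. The ages did not overlap in either case, and the log2 fold change was 1.06 ± 0.23 (adjusted p = 0.00484) in controls and 0.86 ± 0.26 (adjusted p = 0.0273) in BPA-exposed fetuses. CD3E, a chain that T cells need to place the receptor on the surface, read 5.53, 6.28, 5.39, 5.31 and 5.34 in GD100 controls and 5.43, 5.82, 6.64 and 6.47 in GD165 controls. In BPA-exposed fetuses it read 5.72, 5.86, 5.42, 5.68 and 6.14 at GD100 and 5.78, 4.97 and 5.66 at GD165. The ages overlapped in both, at 0.52 ± 0.27 (adjusted p = 0.188) and -0.30 ± 0.29 (adjusted p = 0.506). CD3G, well above background on 14 of 17 arrays, gave 0.27 and -0.13, and CD3D was not measured above background.

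CD27, a costimulatory receptor of the TNF receptor family on T, B and NK cells, passed in both. Its levels were 7.83, 7.86, 7.57, 7.54 and 7.45 in GD100 controls and 8.71, 8.73, 8.16 and 8.99 in GD165 controls. After BPA they were 7.32, 7.42, 7.64, 7.45 and 7.95 at GD100 and 9.10, 8.27 and 8.48 at GD165. No GD165 uterus was as low as any GD100 uterus, and the log2 fold change was 0.99 ± 0.19 (adjusted p = 0.00177) in controls and 1.06 ± 0.21 (adjusted p = 0.00263) in BPA-exposed fetuses. CD28 and CTLA4, the costimulatory receptor of naive T cells and its inhibitory counterpart, gave 0.27 and 0.54 in controls and 0.14 and -0.04 in BPA-exposed fetuses, and ICOS was not measured above background.

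The kinases LCK and ZAP70 and the adaptor LAT, which pass on the T cell receptor signal, ranged from -0.13 to 0.28 in controls and from -0.49 to 0.13 in BPA-exposed fetuses, with none of the 3 past the test. The cytokine receptor chains IL2RB, IL2RG and IL7R ranged from 0.09 to 0.35 and from -0.23 to 0.01, again with none of 3. IL7R, the interleukin 7 receptor on which T cell survival depends, read 5.73, 6.39, 5.85, 6.41 and 5.70 in GD100 controls and 6.17, 6.28, 6.83 and 6.19 in GD165 controls. BPA-exposed levels were 5.67, 6.75, 6.04, 6.35 and 6.27 at GD100 and 6.34, 5.46 and 6.14 at GD165. The groups overlapped throughout. TBX21, the T-bet factor of type 1 lymphocytes, gave -0.20 ± 0.16 and -0.27 ± 0.18, and FOXP3, the factor of regulatory T cells, -0.41 ± 0.21 (adjusted p = 0.190) and -0.78 ± 0.23 (adjusted p = 0.0267).

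Among the surface proteins common to leukocytes, CD48, a ligand of the NK receptor CD244, passed in BPA-exposed fetuses. Its levels were 8.28, 8.76, 7.96, 8.44 and 8.96 at GD100 and 9.67, 8.92 and 9.82 at GD165, and replicate 5 at GD100 lay above replicate 4 at GD165. Control levels were 8.66, 8.55, 8.67, 8.43 and 8.67 at GD100 and 9.57, 9.24, 9.10 and 9.53 at GD165, which did not overlap. The test gave 0.99 ± 0.22 (adjusted p = 0.00574) in BPA-exposed fetuses and 0.76 ± 0.20 (adjusted p = 0.0141) in controls. PTPRC, which encodes CD45, the phosphatase on all nucleated blood cells, read 5.36, 4.66, 4.93, 2.79 and 5.01 in GD100 controls and 6.07, 5.90, 5.19 and 5.81 in GD165 controls. In BPA-exposed fetuses it read 4.43, 5.54, 4.36, 5.10 and 5.29 at GD100 and 7.05, 5.51 and 6.60 at GD165. The controls overlapped between replicate 1 at GD100 and replicate 5 at GD165, the BPA-exposed fetuses overlapped between replicates 2 and 4, and neither difference passed (1.20 ± 0.46, adjusted p = 0.0777, and 1.44 ± 0.50, adjusted p = 0.0517). With weights from the scanner software's error estimate, PTPRC passed in BPA-exposed fetuses (1.39, adjusted p = 0.00723). With normexp background correction it gave only 0.37 in controls (adjusted p = 0.0579) and 0.56 in BPA-exposed fetuses (adjusted p = 0.0116). With slide fitted as a fixed block it gave 1.07 (adjusted p = 0.266) and 1.25 (adjusted p = 0.264). None of these passed. The other PTPRC probe was well above background on 1 of 17 arrays, so no fold is given for it. CD53 gave 0.51 ± 0.20 and 0.59 ± 0.22, and by its other probe 0.41 ± 0.22 and 0.59 ± 0.24. CD37 gave 0.37 ± 0.18 and -0.31 ± 0.20, and CD52 0.16 ± 0.42 and -0.79 ± 0.46.

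None of the 7 B lineage genes passed in either age comparison. CD79A, the signaling chain of the B cell receptor, read 9.42, 9.49, 9.84, 9.62 and 9.62 in GD100 controls and 9.87, 9.78, 9.66 and 10.02 in GD165 controls. BPA-exposed levels were 9.87, 10.02, 9.58, 9.74 and 9.75 at GD100 and 9.42, 9.54 and 9.48 at GD165. The controls overlapped, and in BPA-exposed fetuses all GD165 values were below the GD100 values, with a log2 fold change of -0.31 ± 0.12 (adjusted p = 0.0682). MS4A1, which encodes the B cell protein CD20, read 4.64, 4.09, 4.58, 4.98 and 3.22 in GD100 controls and 5.21, 4.47, 5.50 and 5.89 in GD165 controls. In BPA-exposed fetuses it read 3.57, 5.39, 4.40, 3.88 and 6.23 at GD100 and 6.59, 4.38 and 3.86 at GD165, a wide spread within each group. Its age difference was 0.96 ± 0.60 (adjusted p = 0.294) and 0.25 ± 0.66 (adjusted p = 0.825). CD22, CD79B and the kinase gene BLK gave -0.20, 0.40 and -0.08 in controls and 0.26, -0.68 and -0.53 in BPA-exposed fetuses. PAX5, the factor that sets B cell identity, was well above background on 7 arrays. TNFRSF17, the plasma cell receptor BCMA, was above background on 3 of 5 GD100 BPA arrays, 1 of 4 GD165 control arrays and none of the others. Its GD165 BPA values were raised, where lower, to the lowest signal well above background. Its mean in the GD100 BPA group was then 2.75-fold higher (adjusted p = 0.0610 by limma without this raising). Since not all arrays of the brighter group were above background, this fold is not a lower bound.

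**Figure D4:**
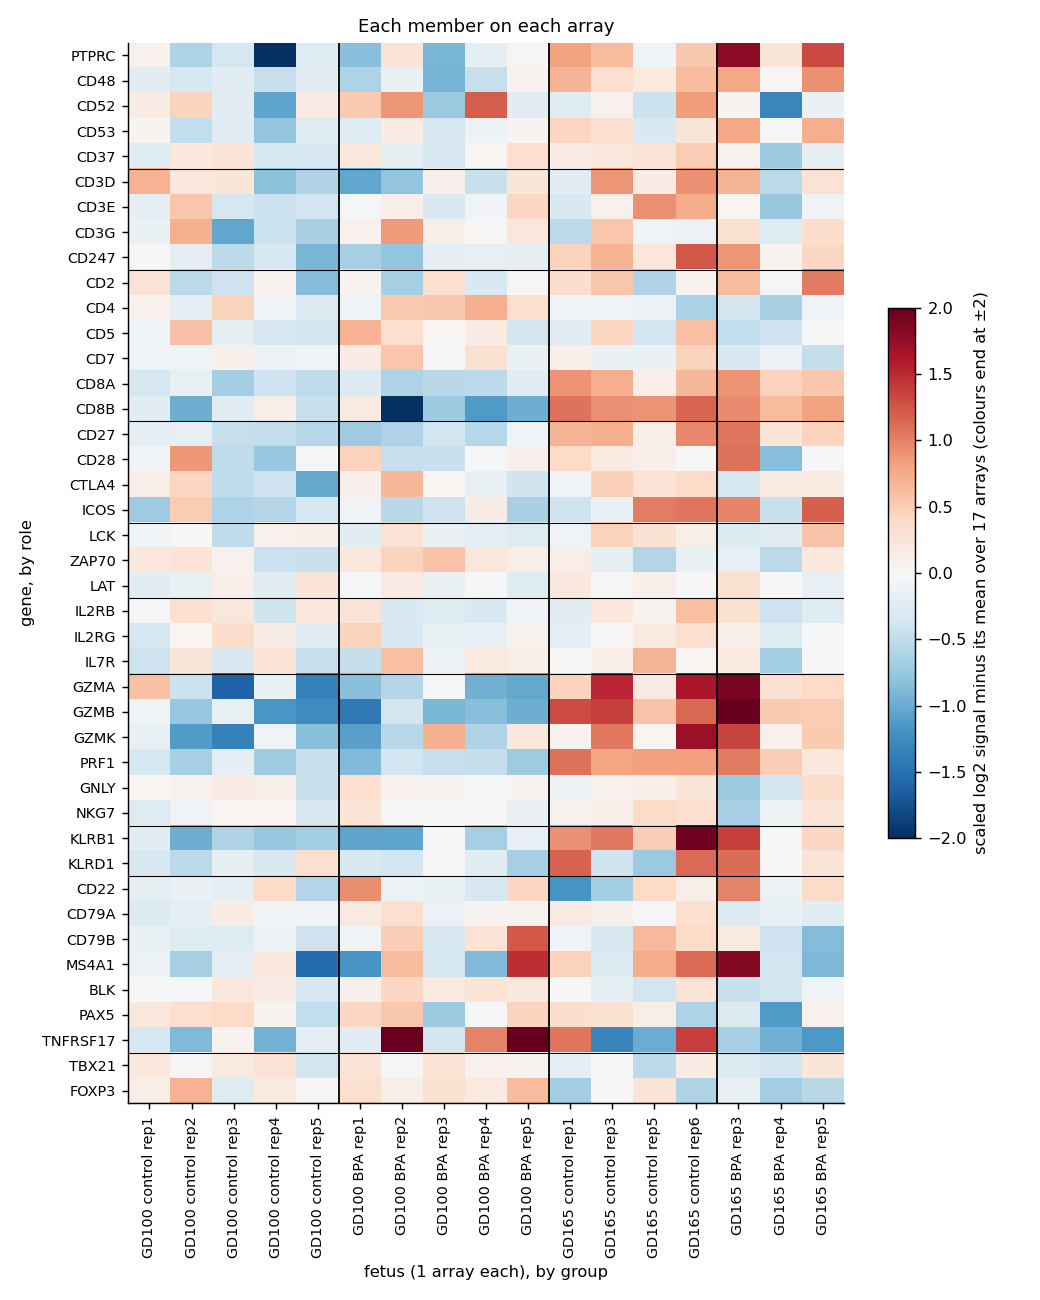
Scaled log2 signal of each of the 42 genes (rows, by role) on each of the 17 arrays (columns, by group), as the difference from the gene's mean over the arrays. The median over the 42 genes ranged from -0.39 to -0.09 in GD100 controls, from -0.14 to 0.05 in the GD100 BPA group, from 0.12 to 0.48 in GD165 controls and from -0.23 to 0.30 in the GD165 BPA group, and the rows of GZMB and PRF1 are blue on all GD100 arrays and red on all GD165 arrays.

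No test found a dependence of the age differences on exposure. The difference between them, which is also the difference between the BPA effects at the ages, passed for 0 of 42 genes and for 0% of all probes by limma, and 7 members (16.7%) had an unadjusted p under 0.05, against 7.83% of all probes. The estimate was above 0 for 13 of 42, against 44.3% of all probes. For the 8 genes that passed with age it lay between -0.55 (KLRB1, adjusted p = 0.824) and 0.38 (CD8B, adjusted p = 0.900). For KLRB1 and CD247, called in controls only, and for CD48, called in BPA-exposed fetuses only, a difference in the rise was therefore not shown.

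Slides were shared in part. Within the 2 slides with 1 control of each age, the 8 genes differed by 0.56 to 1.65 and 0.91 to 2.56. They differed by 0.53 to 1.79 on the 1 slide with 1 BPA-exposed fetus of each age. The 8 were chosen by the age test on these same arrays, so their upward direction within slides is not a separate check. Over all 42 genes the median differences were 0.43, 0.45 and 0.16, with 25, 35 and 26 genes above 0. The medians of all probes were -0.05, 0.00 and -0.01. With slide as a fixed block, 6 members passed in controls, among them CD2 but not CD8B (1.60, adjusted p = 0.0166) and GZMB (1.83, adjusted p = 0.0444). Under that block 0 members and 512 of all 20217 probes passed in BPA-exposed fetuses, while the values were 1.10 for PRF1, 2.25 for GZMB, 1.75 for CD8B, 1.02 for CD27, 0.94 for CD48 and 0.90 for CD8A, with adjusted p-values from 0.0118 to 0.0494. With only the 8 arrays compared, CD8A and PRF1 (2) passed in BPA-exposed fetuses, and the same 2 genes passed without replicate 3 of the GD165 BPA group. Of all 20217 probes, 1176 and 1315 passed in these 2 settings. In controls the calls numbered 4 of 42 without replicate 5 at GD100, replicate 3 at GD165 or replicate 6 at GD165. They were then CD8A, CD27, PRF1 and KLRB1, while 1921, 2039 and 1512 of all 20217 probes passed. Leaving out 1 array at a time ended the control call of CD247 5 times and of GZMB 5 times in 17, and the call of CD48 in BPA-exposed fetuses 5 times. With normexp background correction CD247 was 0.68 in controls (adjusted p = 0.00176).

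BPA was compared with vehicle at each age to ask whether exposure changed these genes. At GD100, 0 of 42 genes passed, as did 0% of all probes. By limma 2 members had an unadjusted p under 0.05 (CD4, 0.42 ± 0.18, and TNFRSF17), where 3.79% of all probes had one. TNFRSF17 was 2.72-fold higher by the group means (adjusted p = 0.99993). It was above background on only 3 of 5 BPA and 0 of 5 control arrays, so its fold is uncertain. None of the 42 had groups that did not overlap, against 0.782% of all probes. The median over the members was 0.12 and over all probes 0.01, and 28 of 42 estimates were above 0, against 53.3% of all probes. For the 5 genes that rose with age at both exposures, the 95% confidence interval of the BPA difference at GD100 was -0.44 to 0.21 for PRF1, -1.002 to 0.54 for GZMB, -0.33 to 0.30 for CD8A, -1.24 to 0.05 for CD8B and -0.48 to 0.29 for CD27.

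At GD165, 0 of 42 genes passed and again 0% of all probes. By limma 4 members had an unadjusted p under 0.05, where 8.61% of all probes did: CD37 (-0.58 ± 0.21), CD7 (-0.37 ± 0.16), NKG7 (-0.38 ± 0.17) and CD79A (-0.36 ± 0.12), all lower after BPA. CD37, a tetraspanin of B cells, read 9.16, 9.23, 9.27 and 9.51 in controls and 9.06, 8.27 and 8.80 after BPA, without overlap, as was also the case for CD79A. These 2 make 4.76% of the members, while 5.24% of all probes did not overlap and were lower and 2.07% did so and were higher. The median over the members was -0.20 and that over all probes -0.02, and 11 of 42 estimates were above 0, against 44.7% of all probes. The interval of the BPA difference was -0.69 to 0.09 for PRF1, -0.85 to 1.01 for GZMB, -0.35 to 0.41 for CD8A, -0.995 to 0.56 for CD8B and -0.49 to 0.43 for CD27. With 4 controls and 3 exposed fetuses, the interval of GZMB reached a doubling (a log2 difference of 1). That of CD8B came close to -1. By its probes 2 and 3 it was -0.89 to 1.65 and -0.998 to 2.31, past a doubling. The intervals of PRF1, CD8A and CD27 reached neither 1 nor -1. Within slides, the median difference over the 42 genes was 0.04, -0.02 and 0.07 on the 3 slides with both groups at GD100, and -0.16 on the 1 slide with both at GD165. The comparisons with age use the same fetuses as those with BPA, and their values are not independent of each other.

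**Figure D5:**
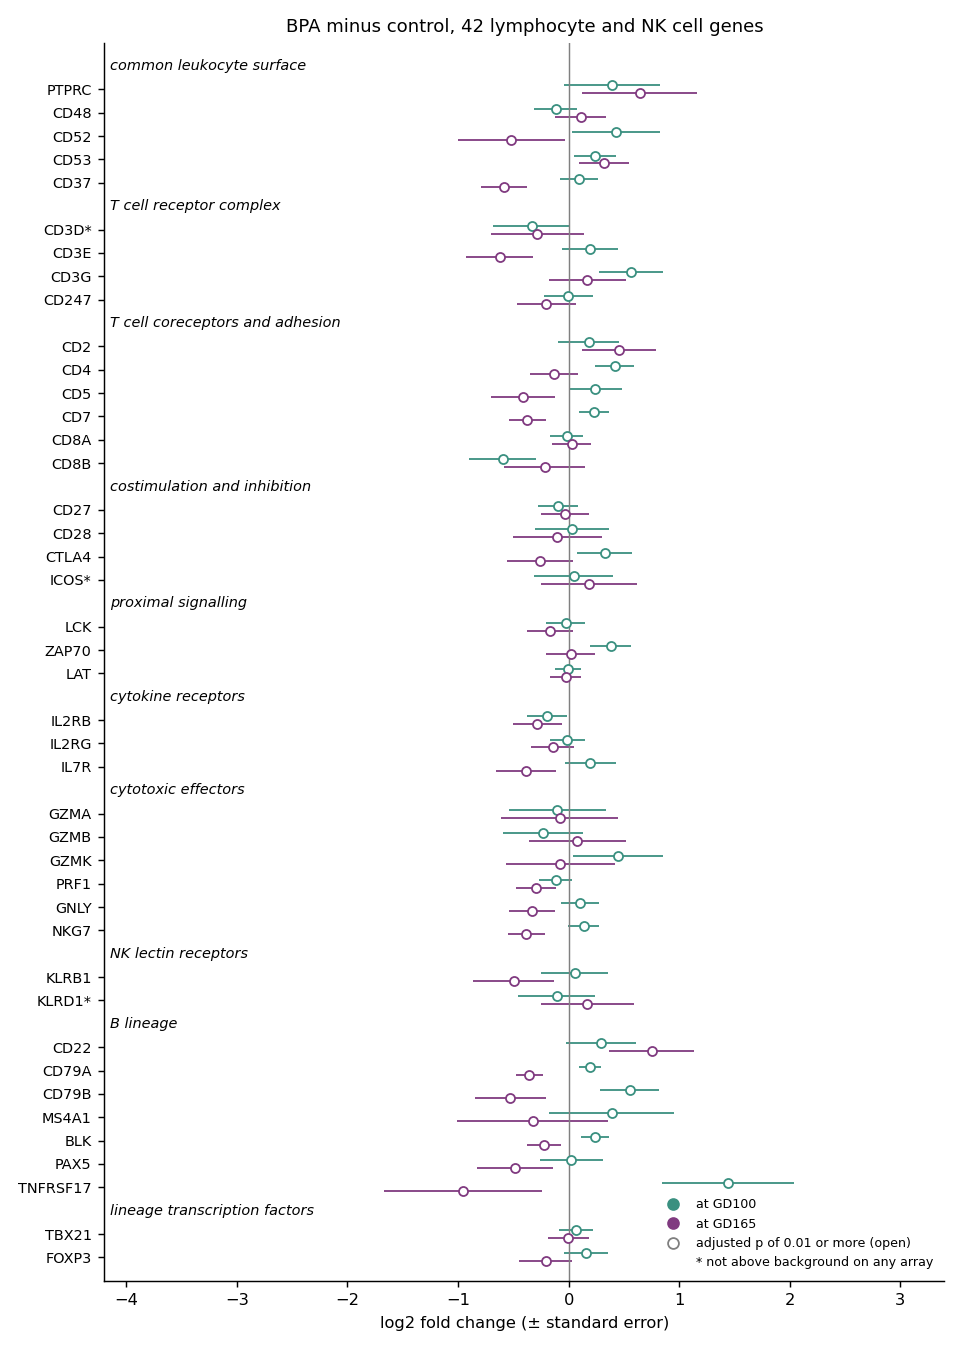
Log2 difference between BPA-exposed and control uteri (x axis, ± standard error) of the 42 genes by role, at GD100 (green) and GD165 (purple). All 84 points are open, as no gene passed the test, and 11 of the 42 estimates at GD165 lie above 0 against 28 of 42 at GD100.

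Other genes of lymphocyte biology were taken from 5 lists chosen by name. The shares of all probes that passed, 11.5% in controls and 9.68% in BPA-exposed fetuses, are the background for these lists and for the markers too. Of 28 measured genes of antigen receptor and leukocyte signaling, 6 rose and 1 fell in controls, and 6 rose and 2 fell in BPA-exposed fetuses. Rises in controls included SKAP1, a T cell adaptor (1.32 ± 0.21, adjusted p = 0.000522) and LCP1, the leukocyte actin bundler (1.14 ± 0.26). PRKCQ, the protein kinase C isoform of T cells, which skeletal muscle also expresses, fell by 1.44 ± 0.26 in controls and by 1.43 ± 0.28 in BPA-exposed fetuses. GRAP2, a T cell adaptor, fell by 1.21 ± 0.28 in BPA-exposed fetuses, a call lost in 15 of 31 other settings, with -0.78 under slide as a fixed block (adjusted p = 0.101) and -0.54 with normexp background correction. Of 28 cytokine, checkpoint and homing genes, 6 rose and 0 fell in controls, and 4 rose and 1 fell in BPA-exposed fetuses. CCL19, a chemokine that draws naive T cells, rose by 1.48 ± 0.26 in controls and 2.23 ± 0.28 in BPA-exposed fetuses, and IL15, on which NK cells depend, by 0.74 ± 0.12 and 0.97 ± 0.13. PDCD1, the inhibitory receptor PD-1, rose by 1.35 ± 0.31 and LTB, lymphotoxin beta, by 1.26 ± 0.25 in controls. SELPLG, a selectin ligand of leukocytes, rose by 1.17 ± 0.18 and 0.91 ± 0.20. CXCL10, a chemokine induced by interferon, rose by 1.79 ± 0.40 in BPA-exposed fetuses (1.01 with normexp). CXCR5, a B cell homing receptor, fell by 0.62 ± 0.13 there. The call of CXCR5 was lost in 10 of 31 other settings and that of PDCD1 in 9. Those of LCP1 in controls and of CXCL10 and SELPLG in BPA-exposed fetuses were each lost in 7.

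Of 20 other NK and innate lymphoid genes, 3 rose and 1 fell in each group. FCGR3A, the Fc receptor CD16 of NK cells and macrophages, read 6.87, 6.66, 6.66, 5.25 and 5.87 in GD100 controls and 8.79, 8.87, 8.71 and 8.84 in GD165 controls. In BPA-exposed fetuses it read 6.45, 6.97, 6.19, 5.81 and 5.88 at GD100 and 10.01, 8.40 and 8.81 at GD165. All GD165 uteri were above all GD100 uteri, with a log2 fold change of 2.54 ± 0.36 (5.81-fold, adjusted p = 0.000180) and 2.81 ± 0.39 (7.04-fold, adjusted p = 0.000259). KLRF1, an activating NK receptor, rose by 1.60 ± 0.27 and 1.36 ± 0.29, CD244 by 1.48 ± 0.34 in controls, and GZMH, granzyme H, by 2.12 ± 0.42 in BPA-exposed fetuses. With normexp background correction KLRF1 gave 0.83 and 0.68 and CD244 0.68, all past the test. Over the 31 other settings the call of CD244 was lost in 9. In BPA-exposed fetuses that of KLRF1 was lost in 7 and that of NCAM1 in 10. NCAM1, which encodes CD56 of NK cells and is also expressed by nerve and muscle, fell by 0.86 ± 0.13 and 0.64 ± 0.15, and in BPA-exposed fetuses it was -0.41 under slide as a fixed block (adjusted p = 0.0804). Of 14 lymphoid transcription factors only POU2AF1, a B cell coactivator, passed (1.37 ± 0.27 in controls), and of 11 receptor locus, plasma cell and precursor genes, including RAG1 and PTCRA of immature T cells, none passed in either group. None (0) of the genes of the 5 lists passed for BPA at either age by limma.

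Markers of other cells moved with age as well. Of 14 myeloid markers, 1 rose in controls (LYZ, lysozyme, 1.99 ± 0.26) and 2 in BPA-exposed fetuses (LYZ, 1.66 ± 0.28, and C1QB, 1.07 ± 0.26). Their summed level, on the log2 scale, was 14.89 to 15.68 in GD100 controls, 15.60 to 16.24 in GD165 controls, 15.16 to 15.69 in the GD100 BPA group and 15.72 to 16.48 in the GD165 BPA group, and CD163 was well above background on 1 array. Of 5 mast cell markers CPA3 rose, by 3.41 ± 0.67 and 4.27 ± 0.73, and was well above background on 2 of 5 GD100 control and 3 of 5 GD100 BPA arrays. Of 5 endothelial markers VWF rose, by 1.30 ± 0.26 and 1.37 ± 0.29. Of 4 skeletal muscle markers MYH2 and ACTA1 rose in controls and MYH2 in BPA-exposed fetuses, and the sum was 8.22 to 9.77 in GD100 controls, 11.59 to 16.58 in GD165 controls, 8.61 to 12.21 in the GD100 BPA group and 11.17 to 15.14 in the GD165 BPA group. The erythroid sum was 17.91 to 18.65 in GD100 controls and 17.64 to 19.38 in GD165 controls, with 0 of 7 markers past the test. It was 18.61 to 19.27 in the GD100 BPA group and 17.001 to 18.63 in the GD165 BPA group, between which 1 of 7 (KLF1) fell. HBA2, at 18.42 in GD100 controls against 11.71 for ALAS2, the next brightest, makes up nearly all of this sum. As differences from their means over the arrays, the 7 markers had medians of 0.09 to 0.74 in GD100 controls and -0.99 to 0.20 in GD165 controls. These medians were -0.12 to 1.64 in the GD100 BPA group and -1.50 to -0.31 in the GD165 BPA group. Of 6 neutrophil markers 1 (ELANE, 2.26 ± 0.50) rose in controls. Of 4 epithelial markers 2 rose in controls (EPCAM and KRT18) and 1 in BPA-exposed fetuses (EPCAM), of 5 platelet markers 1 fell in BPA-exposed fetuses (GP1BA), and none of 4 thymus and skin markers passed. Of 5 smooth muscle markers 1 rose in controls (CNN1). Of 6 markers of stroma and Müllerian identity 1 rose (ESR1) and 2 fell (HOXA10 and PDGFRA) in controls, and 1 rose (ESR1) in BPA-exposed fetuses. The part of these cells in the results for the lymphocyte genes was not tested.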

How the data were processed

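RNA from 17 fetal uteri was hybridized to 1-color Agilent rhesus macaque arrays on 6 slides, 1 fetus per array. The authors deposited the scanner output of Agilent Feature Extraction 9.5, in which the background-corrected processed signal intensity was used here. They also deposited a value table whose 711467 values equal those intensities on the linear scale. Each of the 20217 probes has 2 spots, which were averaged without control spots and outlier spots. On the log2 scale, each array was then shifted so that its 75th percentile equaled the mean over arrays (12.62).

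All 4 groups were fitted together by limma's lmFit and eBayes (limma 3.58.1, R 4.3.3, two-sided), with Benjamini-Hochberg adjustment over all probes and a threshold of 0.01. The methods of the study describe an error-weighted analysis of variance with the same threshold, which was approximated as an alternative. With that alternative 0 probes passed for BPA at either age. The study itself reported significant differences with BPA at GD165 and minimal ones at GD100, so its BPA calls were not reproduced here. It also measured selected GD165 genes by real time RT-PCR, with changes in the same direction as on its arrays. Failing the test used here does not show that BPA had no effect. The code was tested on simulated data. Signal was 17.5 to 24.2 times background, and the number of arrays limits the precision. Tables used Python 3.11.15 with pandas 2.3.3.

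Genes were named from the probe descriptions, and genes without such a match were not analysed here. Gene coordinates were not used, since the build behind those in the descriptions is not given in the sources used here. Members and lists were chosen with earlier results of these data known. Values in every fetus were given for members that passed and, passed or not, for PTPRC, CD3E, CD4, CD8A, CD79A, MS4A1, NKG7, GZMB and IL7R. In related lists, at most the 4 genes with the largest change among those that passed were named for a comparison; values of CD37, of FCGR3A and of single genes beyond this rule were chosen after they were seen. Alternatives were background correction (normexp, offset 50), scaling to the median, quantile normalization, no scaling, a filter on dim probes, outlier spots, moderation, error weights, the groups fitted, slide, replicate number, the threshold (0.05), the mean over probes and leaving out each array. Other probes of 4 genes were tried after seeing the data.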

Additional observations from a re-analysis of the deposited data

Results flagged for a closer look

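In groups of 4 or 5 fetuses, the highest or lowest value of a member was compared with the rest by Dixon's ratio, and 10 of 126 groups (7.94%) held a value past the critical value, where chance gives about 1 in 20. Groups of 3 were not tested. In GD100 controls, PTPRC was 2.79 in replicate 4, against 4.66 to 5.36 in the others, and CD3E was 6.28 in replicate 2, against 5.31 to 5.53. Replicate 3 of that group stood apart for CD7 (8.73, others 8.51 to 8.55) and LCK (8.99, others 9.45 to 9.61), and replicate 5 for GNLY (13.83, others 14.31 to 14.44). Replicate 2 of the GD100 BPA group was high for CD3G (4.85, others 4.02 to 4.23) and LCK (9.80, others 9.24 to 9.36). In GD165 controls, CD4 was 12.34 in replicate 6 (others 12.86 to 12.90), IL7R was 6.83 in replicate 5 (others 6.17 to 6.28) and PRF1 was 8.80 in replicate 1 (others 8.50 to 8.53). These 10 values came from 8 different fetuses. Without replicate 1 of the GD165 controls, PRF1 still passed between the ages in controls, at 1.28.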

How the results depend on the processing

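CD8A and PRF1 passed between the ages in controls under all 31 alternatives. The number of members called in controls was 6 to 10 under the alternatives other than the replicate block, with arrays left out giving 4 to 8. In BPA-exposed fetuses the number was 2 with only the compared groups fitted, 0 with slide as a fixed block and 13 at an adjusted p under 0.05, and 2 to 6 with arrays left out. The cause was not tested. No member passed for BPA at either age under any alternative, and the interaction gives no value with only the compared groups. The median over the members was 0.20 with normexp in controls (0.31 to 0.43 with arrays left out) and 0.24 without scaling in BPA-exposed fetuses (-0.07 to 0.14). It was 0.06 to 0.17 for BPA at GD100 and -0.30 to -0.04 at GD165 with arrays left out. Without scaling the median of all probes between the ages in BPA-exposed fetuses was 0.13, with 1238 probes higher and 388 lower, against 974 and 982 with it.

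Over all probes, the calls in controls were 2328, against 1525 without scaling, 1172 with only the compared groups, 1233 with slide as a fixed block and 4279 at 0.05. In BPA-exposed fetuses they were 1956, against 1176, 512 and 4255 under the last 3 of these. For BPA at GD100, 1 probe passed with only the compared groups and 1 without replicate 4 of the GD165 BPA group, where 1 also passed for the interaction. For BPA at GD165, 1 passed without control replicate 1, 3 or 6.

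Replicate numbers did not pair the samples: correlations of same-numbered fetuses' deviations between the ages lay at 0.04, 0.03 and -0.10 in controls. With the replicate block, 2 members (CD8A and PRF1) passed in controls and 5 in BPA-exposed fetuses, and the calls over all probes were 958 and 1444.

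Among the members and related genes recomputed under the alternatives, directions turned for differences that had not passed. For BPA, single values were recomputed for few members, and markers for no comparison. With slide as a fixed block, NKG7 between the ages in BPA-exposed fetuses was 0.025, and for BPA at GD100 CD8A was 0.071 and CD3E -0.0089. For BPA at GD165, CD8A was -0.000404 with normexp, -0.30 with slide as a fixed block and -0.016 with slide as a random block, CD4 was 0.027 without scaling, and MS4A1 was 0.46 with error weights. With arrays left out, values between the ages in BPA-exposed fetuses ran from -0.57 to 0.79 for MS4A1, from -0.40 to 0.050 for NKG7 and from -0.41 to 0.026 for IL7R. For BPA at GD100 they ran from -0.080 to 0.051 for CD8A and from -0.046 to 0.60 for PTPRC. For BPA at GD165 they ran from -0.13 to 0.13 for CD8A, from -0.58 to 0.42 for GZMB, from -0.28 to 0.013 for CD4 and from -1.15 to 0.22 for MS4A1.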
